A study of Mus musculus with 24 samples.

Results

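The Hox genes encode homeodomain transcription factors that lie in the mouse genome in 4 clusters. Their methylation was followed in the 4 GRCm38 windows that hold these clusters, HoxA on chr6:52150000-52265000, HoxB on chr11:96190000-96372000, HoxC on chr15:102915000-103042000 and HoxD on chr2:74665000-74767000. Members were chosen by position alone: every CpG of the methylation table inside a window, which gave 2463 of 694379 CpGs, 706 in HoxA, 570 in HoxB, 503 in HoxC and 684 in HoxD, around 38 listed Hox genes. DNA of the micro-dissected dentate gyrus, the granule cell layer region of the hippocampus, was profiled by reduced representation bisulfite sequencing (RRBS), in which genomic DNA is cut at CCGG and unmethylated cytosines are converted so that each CpG gets a methylation percent. All 24 mice were female C57BL/6JRj, 8 in each of 3 groups: young STD mice of 3 months in standard cages, aged STD mice of 17 months in standard cages, and aged ENR mice of 17 months that had spent their last 3 months in environmental enrichment, a large enclosure with toys, tunnels and more cage mates. Aging was read as aged STD minus young STD and ENR as aged ENR minus aged STD, so that the aged STD mice entered both comparisons. The study asked whether ENR begun in old mice reverses DNA methylation changes of aging. Each value came from a tissue of mixed cells, in which a shift in cell proportions and a shift within cells cannot be told apart.

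Hox genes are expressed in the embryo in the order in which they lie along the chromosome and give the body axis its positional identity. The forebrain, from which the hippocampus develops, lies in front of their expression domains, and there the clusters are held silent by Polycomb complexes, which mark the chromatin with trimethylated histone H3 lysine 27. CpG-rich sequence bound by Polycomb is usually free of DNA methylation, whereas CpG-poor sequence outside promoters is usually methylated in adult tissue.

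The sequences that follow were chosen because they carry the ends of the range of methylation and the regions with the smallest unadjusted p. They were read from the plus strand of GRCm38, 5′ to 3′, and capitals mark the CpGs measured on either strand. The first lies between Hoxb13 and Hoxb9 at chr11:96248605-96248804, partly in the processed pseudogene Gm11539, and its 1-kb tile was the most methylated of the clusters. The second lies in the coding exon of Hoxb8 that holds the start of the homeobox, at chr11:96284170-96284211, and its tile was at 0 in every mouse with a value. The third ends directly before a start of Hoxd3 at chr2:74736219-74736514, the fourth lies just before the start of Hoxb5 at chr11:96303142-96303247, and the fifth lies in Hoxc5 beyond the end of Hoxc9 at chr15:102985379-102985466. The last pair surrounds single CpGs, in the coding exon of Hoxa4 at chr6:52190488-52190529 and before Hoxc10 at chr15:102966220-102966261.
Hoxb13-Hoxb9 interval: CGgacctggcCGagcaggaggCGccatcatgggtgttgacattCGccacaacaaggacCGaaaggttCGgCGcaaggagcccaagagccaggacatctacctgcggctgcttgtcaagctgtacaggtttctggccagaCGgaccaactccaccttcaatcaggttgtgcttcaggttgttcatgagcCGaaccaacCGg
Hoxb8 coding exon: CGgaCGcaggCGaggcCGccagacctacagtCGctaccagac
Hoxd3 start: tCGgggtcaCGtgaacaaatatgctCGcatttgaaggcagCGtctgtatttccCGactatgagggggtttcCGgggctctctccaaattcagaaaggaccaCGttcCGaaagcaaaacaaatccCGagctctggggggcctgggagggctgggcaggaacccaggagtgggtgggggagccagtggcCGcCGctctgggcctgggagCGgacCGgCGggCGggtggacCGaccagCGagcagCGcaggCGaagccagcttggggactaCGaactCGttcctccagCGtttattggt
Hoxb5 start: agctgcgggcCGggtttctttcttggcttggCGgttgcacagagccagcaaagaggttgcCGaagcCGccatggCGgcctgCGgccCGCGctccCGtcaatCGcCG
Hoxc5 beyond Hoxc9: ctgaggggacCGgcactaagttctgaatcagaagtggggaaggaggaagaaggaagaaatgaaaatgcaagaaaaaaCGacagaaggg
Hoxa4 coding exon: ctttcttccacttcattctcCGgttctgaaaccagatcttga
Hoxc10 upstream: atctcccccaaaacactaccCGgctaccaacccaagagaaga

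Between 1124 and 2200 of the 2463 CpGs had a value in a given mouse, and 57 had one in all 24 mice. The measured positions were 13.4 to 20.5% of the CpGs of the reference sequence in the windows, and all lay within 100 bp of a CCGG. The number of reads behind a percentage is unknown, so no interval is given for a value of a CpG. Aged STD replicate 5 stood apart from the other libraries, with a plain mean of 23.6% over its covered CpGs against 35.8 to 44.5% in the other 23 mice, and values without it are also given for the cluster means, the methylated interval, and the promoters, tiles and CpGs with the smallest unadjusted p. As a check of the tissue, promoters of the neuronal genes Prox1, Rbfox3 and Syt1 had mean levels of 1.17 to 2.26%, the astrocyte promoters Slc1a3 and Aqp4 of 1.43 and 28.1%, the oligodendrocyte promoter Mbp of 6.62%, the endothelial promoter Cldn5 of 2.48% and the microglial promoter Aif1 of 81.2%. Promoter methylation gives no measure of expression or of cell number, and the remaining 7 of 15 markers had too few CpGs.

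Methylation of the Hox clusters was low along most of their length. The mean over CpGs was 5.15%, with 4.41% in HoxA, 7.17% in HoxB, 4.98% in HoxC and 4.37% in HoxD, against 38.3% over all CpGs of the table. Of the 2463 CpGs, 2132 (86.6%) had a mean under 10%, compared with 47.4% of all CpGs, and 85.4% of the values in the windows were exactly 0. The 100 kb on each side of the windows had means of 25.6% around HoxA, 51.3% around HoxB, 27.2% around HoxC and 8.74% around HoxD. The flanks of all 4 clusters thus had higher means than the clusters themselves. Those of HoxD differed the least, with 6.22% of their CpGs at 50% or more against 0.439% in HoxD. By median the flanks of HoxA, HoxB and HoxC were also higher, but those of HoxD, at 1.94%, were below HoxD, at 2.52%. These levels are a description, with no test.

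**Figure D1:**
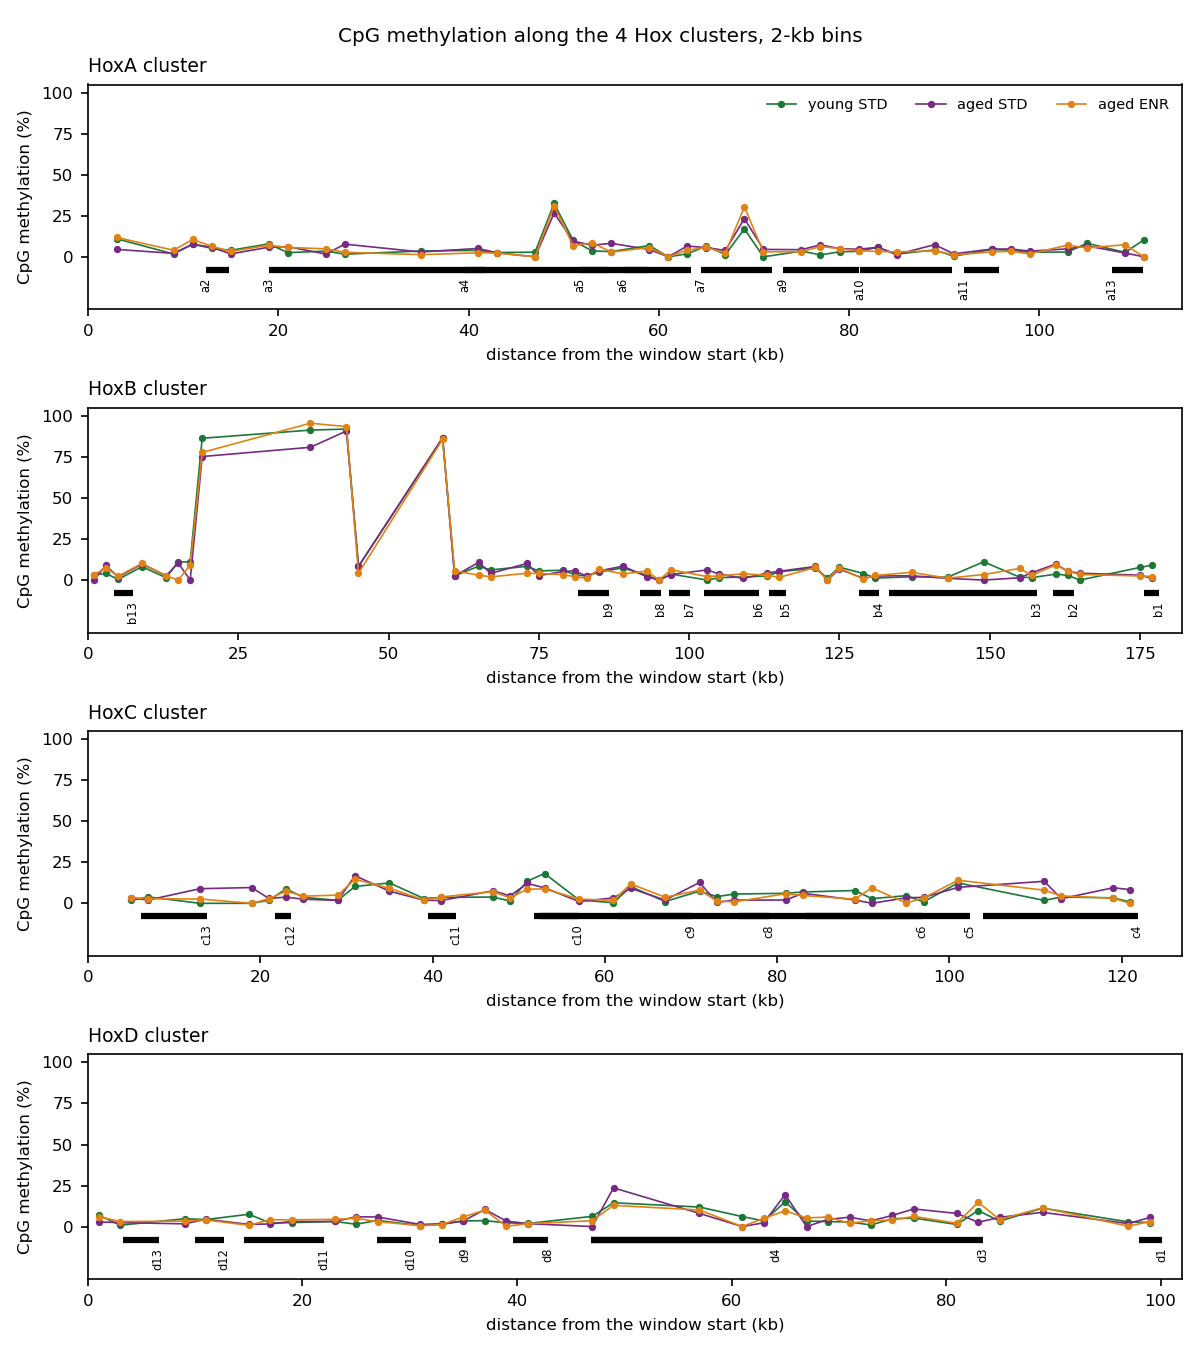
Mean methylation (percent) over all mice of each group in 2-kb bins, plotted against the distance from the start of the window in kb, for HoxA, HoxB, HoxC and HoxD; lines are the means of the 3 groups and black bars are the Hox genes. Most bins lie under 10%, and the bins near 90% in HoxB fall between Hoxb13 and Hoxb9.

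The low level was not limited to promoters. Within 1 kb of the start of a protein-coding transcript, the 1180 Hox CpGs had a mean of 3.54%. All such CpGs of the table had a mean of 5.73%, with 3.45% of them at 50% or more, against 0% in the Hox clusters. By median the order was reversed, at 1.71% in the Hox clusters and 0% over the table. Farther than 1 kb from such a start, the Hox CpGs had a mean of 6.63% (1283 CpGs) and all CpGs one of 61.3%. Exons and introns of the Hox genes beyond 1 kb were alike, at 4.80 and 4.78%, and CpGs outside the listed genes were at 8.84%.

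Away from starts the Hox clusters lay below the rest of the table at every CpG density. Among CpGs over 1 kb from a start with at most 4 CpGs of the reference within 100 bp, itself included, the 157 in the Hox clusters had a mean of 16.5% and the 164733 of the whole table a mean of 72.2%. In single mice this Hox mean ran from 11.8 to 21.7% (median 15.8%) and the mean over the whole table from 65.1 to 75.1% (median 72.3%), so that the ranges did not overlap in any of the 24 mice. Without the space between Hoxb13 and Hoxb9, the 140 remaining sparse CpGs had a mean of 12.5%. At 5 to 9 CpGs within 100 bp the means over 1 kb from a start were 7.17% in the Hox clusters and 62.8% over the table, at 10 to 14 CpGs 4.03 and 49.4%, at 15 to 19 CpGs 2.84 and 22.2%, and at 20 or more 2.87 and 7.67%. The groups had similar sparse-CpG means in the Hox clusters, 16.6% ± 2.78 in the young STD group, 16.7% ± 2.08 in the aged STD group and 16.0% ± 2.67 in the aged ENR group (SD, n = 8 each).

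**Figure D2:**
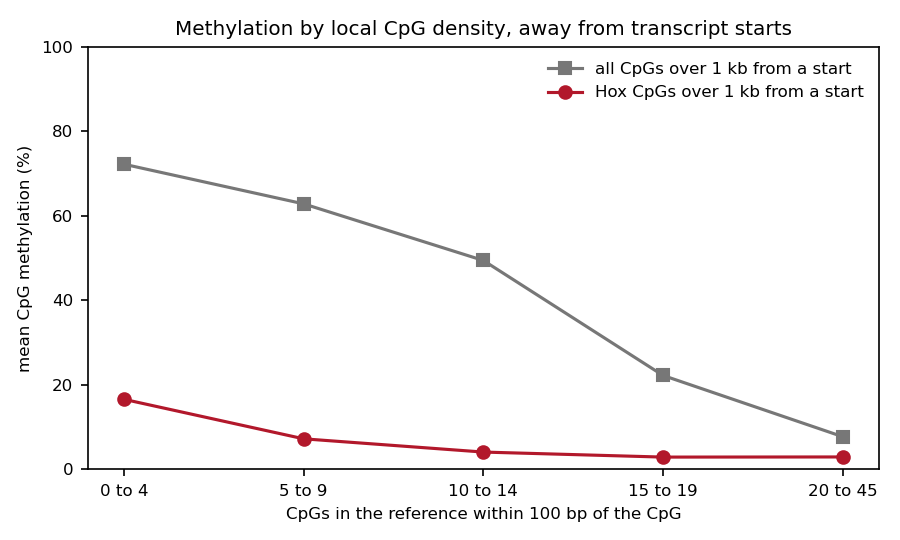
Mean methylation (percent) of CpGs over 1 kb from a start, by the number of CpGs within 100 bp, for the Hox clusters and for all CpGs of the table; points are means over CpGs. The Hox CpGs lie at 16.5% and all CpGs at 72.2% in the sparsest class, and at 7.17 and 62.8% in the next.

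Methylated sequence was found almost only in HoxB, between Hoxb13 and Hoxb9. Of the 2463 CpGs, 26 had a mean of 50% or more, and 22 of these lay in this interval of 74.0 kb, which separates the most posterior HoxB gene from the rest of its cluster. They formed a run of 11 CpGs at chr11:96208578-96232199, with a median of 88.0%, and a run of 11 CpGs at chr11:96241056-96248803, with a median of 82.2%, which contained the first sequence shown. The pseudogene Gm11539 in the second run had a mean of 88.7% over 7 CpGs. Reads of a retrotransposed copy can be hard to place, which was not tested. The 3 intergenic CpGs directly before it, at positions 96248605, 96248615 and 96248626, had means of 73.3, 76.1 and 93.1%. They had values in as many mice as its first CpGs (3 young STD, 3 aged STD and 5 aged ENR). They may rest on the same reads and are no separate check. The noncoding RNA gene Gm53, which follows it towards Hoxb9, had a mean of 3.67% over 48 CpGs, and the 14 CpGs within 1 kb of Mir196a-1, a microRNA gene of the interval, had one of 4.22%. HoxB outside the interval had a mean of 3.78% (397 CpGs, none at 50% or more), which was below HoxA, HoxC and HoxD.

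The methylated CpGs of the interval had few values per mouse, from 3 to 22 of the 22. In young STD mice their mean ran from 73.7% over a median of 89.6% to 98.4%, in aged STD mice from 51.6% over 80.9% to 97.1%, and in aged ENR mice from 82.0% over 86.1% to 104%. Means over a set of CpGs are coverage-adjusted, that is, the average deviation of a mouse from the level of each CpG it covers was added to the level of the set, and so can fall below 0 or above 100%. The group means were 89.2% ± 7.42 in the young STD group, 78.1% ± 15.5 in the aged STD group and 88.6% ± 7.80 in the aged ENR group (SD, n = 8 each), and the groups overlapped. Aged STD replicate 5 was at 61.4%, and without it the aged STD mean was 80.5% ± 15.1 (SD, n = 7). Because the CpGs were picked for their level over all mice, the group values are a description. Over all 173 CpGs between Hoxb13 and Hoxb9 the group means were 15.5, 14.8 and 14.5% in the same order, which gave differences of -0.645 points for aging and -0.262 for ENR (-0.307 and -0.600 without aged STD replicate 5).

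The other 4 methylated CpGs lay in or beside transcribed noncoding genes. In HoxD, 3 CpGs within Haglr, a noncoding RNA gene antisense between Hoxd3 and Hoxd1, had means of 95.7%, 76.2% and 88.5% (chr2, positions 74753867, 74754445 and 74759520), although Haglr as a whole was at 7.95% over 79 CpGs. In HoxA, the CpG at chr6, position 52199962, in an exon of Hoxa3 that also lies in the noncoding gene Hoxaas3, was at 63.2% in the young STD group, 55.6% in the aged STD group and 55.4% in the aged ENR group. HoxC had no CpG at 50% or more. Its most methylated tile, chr15:102945001-102946000, with a mean of 15%, lay in Hotair, the HoxC noncoding RNA known for its ties to Polycomb.

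In the Hotair tile the 8 young STD mice ranged from 3.78% over a median of 7.46% to 21.3%, the 8 aged STD mice from 5.61% over 18.5% to 36.1%, and the 8 aged ENR mice from 5.95% over 14.5% to 27.3%. 3 of the 8 aged STD mice lay above every young STD mouse, among them replicate 5 at 27.1%, and the groups otherwise overlapped. The aging difference was 7.64 ± 4.26 points (SE) and did not pass the test (limma, Benjamini-Hochberg adjusted p = 0.919), and the ENR difference was -4.15 ± 4.26 points (limma, adjusted p = 0.963). Hotair had 14 measured CpGs, 13 of them in this tile, so its group levels repeat those of the tile. They were 10.3% in the young STD group, 16.8% in the aged STD group and 14.6% in the aged ENR group. Hotairm1, a noncoding RNA gene at the opposite, anterior end of HoxA, was at 5.59, 5.75 and 8.30% in the same order.

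Hox promoters were low but not at zero, with a median above that of all promoters. A promoter was taken as every CpG within 1 kb of a start of a protein-coding transcript of the gene, and 36 of the 38 Hox genes had at least 5 measured CpGs there; Hoxb4 had 4, Hoxc5 had 1, and both were left out. Their median level was 3.42%, against 1.95% over 12329 promoters of the genome, and 35 of 36 (97.2%) were under 10%, against 85.0% of all promoters. No Hox promoter reached 50%, whereas 439 promoters of the genome (3.56%) did.

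The least methylated were Hoxd9 (1.12%), Hoxa10 (1.55%), Hoxc11 (2.03%), Hoxd8 (2.05%), Hoxd13 (2.22%) and Hoxc13 (2.25%). All of these but Hoxd8 belong to paralog groups 9 to 13, the posterior Hox genes that pattern trunk, limb and tail. The most methylated were Hoxc10 (12.8%), Hoxa3 (7.08%), Hoxd4 (6.86%), Hoxa6 (6.23%), Hoxc4 (5.64%) and Hoxb2 (5.37%). Of these, Hoxa3, Hoxd4, Hoxc4 and Hoxb2 belong to the anterior groups 1 to 4, genes of the hindbrain and neck, and Hoxc10, which acts in the lumbar cord and hindlimb, is posterior. By paralog group, the median promoter was at 4.17% in groups 1 to 4 (10 genes), 3.33% in groups 5 to 8 (10 genes) and 3.16% in groups 9 to 13 (16 genes), with ranges that overlapped.

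The Hoxc10 promoter varied widely between mice of one group, with an SD of 12.4 points in young STD mice, exceeded only by the Hoxb3 promoter in aged ENR mice (SD 17.2 points, n = 5, highest mouse 39.9%). The 12 CpGs of Hoxc10 ranged from 2.82% over a median of 10.8% to 33.5% in young STD mice, from 9.19% over 13.6% to 32.1% in aged STD mice, and from -1.25% over 7.11% to 22.8% in aged ENR mice. The groups overlapped, and 4 of the 8 aged ENR mice lay below every aged STD mouse. The aging difference was 1.24 ± 4.67 points and the ENR difference -7.65 ± 4.67 points (SE; limma, adjusted p = 0.985 and 0.925).

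**Figure D3:**
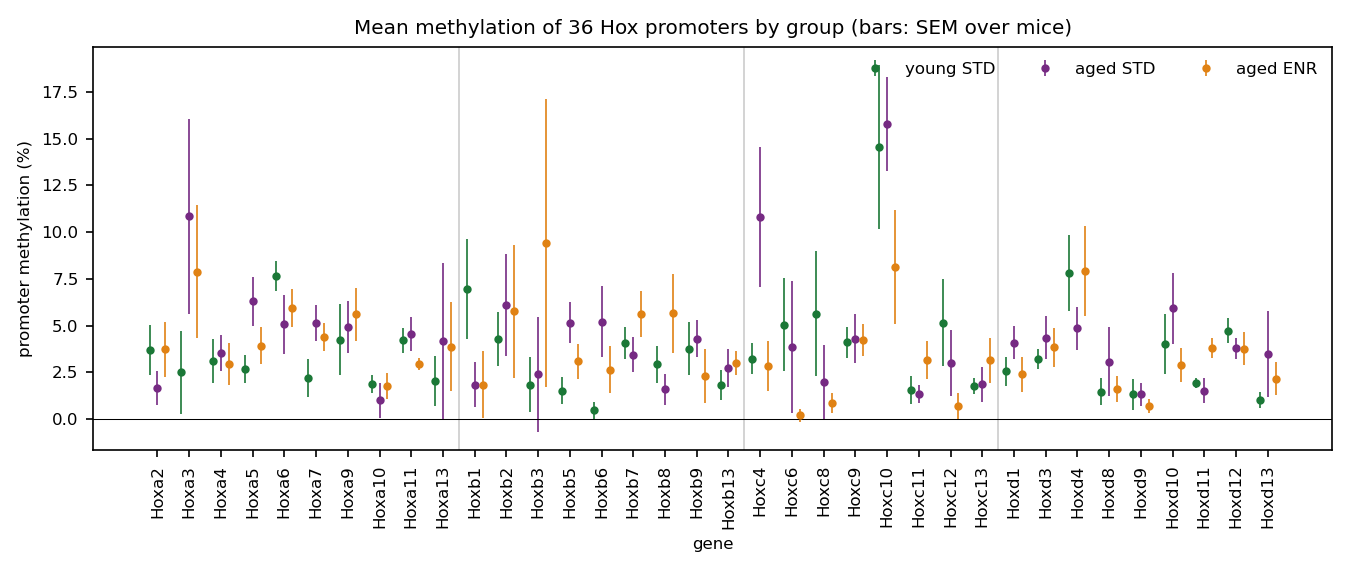
Coverage-adjusted methylation (percent) of the 36 tested Hox promoters by group, ordered by cluster and paralog group; points are group means and bars the SEM over mice. Hoxc10 is the only promoter with a mean over all mice above 10%, at 12.8%.

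Averaged over whole clusters, the groups differed by less than 1 point. Over all Hox CpGs the young STD mice ranged from 4.65% over a median of 4.89% to 5.37%, the aged STD mice from 4.48% over 5.23% to 6.55%, and the aged ENR mice from 4.94% over 5.14% to 5.44%. The means were 4.96% ± 0.265, 5.34% ± 0.637 and 5.16% ± 0.206 (SD, n = 8 each), which gave an aging difference of 0.374 points and an ENR difference of -0.182 points. The groups overlapped in every cluster. Without aged STD replicate 5 the differences were 0.501 and -0.309 points. Over all CpGs of the table the same means were 38.7% in the young STD group, 38.3% in the aged STD group and 37.9% in the aged ENR group.

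In HoxA the group means were 4.25% ± 0.387, 4.81% ± 1.21 and 4.33% ± 0.634 in the order young STD, aged STD, aged ENR, and in HoxB 7.09% ± 0.401, 7.16% ± 1.27 and 7.23% ± 0.519. In HoxC they were 4.90% ± 0.559, 5.28% ± 0.627 and 4.82% ± 1.52, and in HoxD 4.0% ± 0.660, 4.45% ± 1.21 and 4.54% ± 0.580 (SD, n = 8 each). These differences between groups were smaller than the SD of the aged STD mice and several moved with single mice. The HoxD aging difference went from 0.447 to 0.0451 points without aged STD replicate 4, the HoxA aging difference went from 0.567 to 0.269 points without aged STD replicate 8, and the HoxD ENR difference of 0.0952 points changed sign in 4 of the 24 fits with a mouse left out, to -0.0885 without aged ENR replicate 1. The HoxB differences of 0.0698 (aging) and 0.0697 points (ENR) had no stable sign: without aged STD replicate 5 they were 0.300 and -0.172 points, and without aged STD replicate 6 they were -0.149 and 0.310 points. With aged STD replicate 5 left out, the aging and ENR differences were 0.726 and -0.641 points in HoxA and 0.360 and -0.455 in HoxC. In HoxD they were 0.552 and 0.0162 points. Without aged STD replicate 4, the overall aging difference was 0.178 and the ENR difference -0.00340 points.

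**Figure D4:**
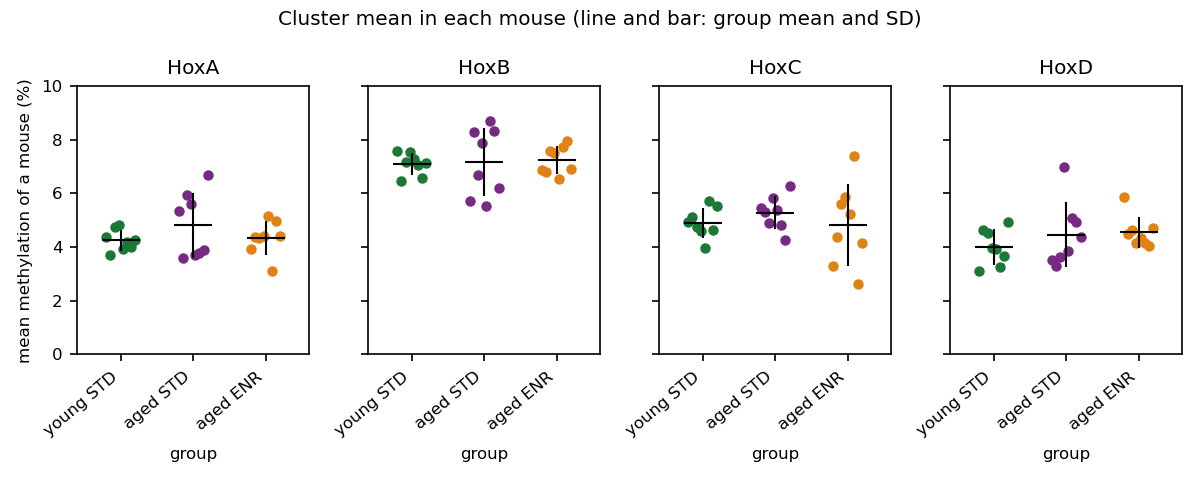
Coverage-adjusted mean methylation (percent) of HoxA, HoxB, HoxC and HoxD in each mouse, by group, with group mean and SD; each point is a mouse. The groups overlap in all 4 clusters, and the aged STD mice have the largest SD in HoxA, HoxB and HoxD (1.21, 1.27 and 1.21 points) and the aged ENR mice in HoxC (1.52 points).

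No CpG of the clusters passed the test for aging or for ENR. With limma over all 694379 CpGs, a Benjamini-Hochberg threshold of 0.05 and group means over 25 points apart, 0 of 2463 Hox CpGs were called for aging, where 0.00475% of all CpGs were called, and 0 of 2463 for ENR, where 0.00432% were. The smallest adjusted p in the clusters was 0.288 for aging and 1 for ENR. At an unadjusted p under 0.05, 43 Hox CpGs (1.75%) passed for aging, against 2.23% of all CpGs, and 33 (1.34%) for ENR, against 1.90%. No fit with another scale, variance model or mouse left out called a Hox CpG, except the fit with the replicate number as a block, which called 1 in each comparison.

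By size alone, 57 Hox CpGs were more than 25 points higher in aged STD than in young STD mice, where 4.15% of all CpGs were, and 39 were lower, where 5.01% were. For ENR, 25 were more than 25 points higher, where 3.82% of all CpGs were, and 53 lower, where 4.51% were. Together these were 3.90% of the Hox CpGs for aging against 9.16% of all CpGs, and 3.17% for ENR against 8.33%. Distance from starts bore on this comparison. Over 1 kb from a start the shares were 3.90% and 13.2% for aging, whereas within 1 kb they were 3.90% in the Hox clusters and 3.40% over all CpGs. For ENR they were 3.98 and 12.1% over 1 kb from a start, and 2.29 and 2.92% within 1 kb. The median SE of a difference at a Hox CpG was 4.76 points for aging and 4.64 for ENR. Among the 932 Hox CpGs with at least 5 mice in every group, 10 were higher and 8 lower by more than 25 points for aging, and 6 higher and 7 lower for ENR. These were 1.93% of the 932 for aging, against 5.15% of all CpGs with as many mice, and 1.39% for ENR, against 4.72%. Most of the large differences thus came from CpGs with 3 or 4 mice in a group.

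The 3 CpGs with the smallest unadjusted p for aging, among CpGs with 5 or more mice in each group, were at or near 0 in aged STD mice. At the CpG at position 52190509 in the coding exon of Hoxa4, whose surroundings are shown above, the 5 young STD mice had 18.8, 11.1, 0, 16.1 and 0%, all 7 aged STD mice 0%, and the 8 aged ENR mice 0% but for 4.76% in replicate 8. The difference was -9.20 ± 2.56 points (limma, adjusted p = 1). In Gm53, at position 96264160, the 5 young STD mice had 46.2, 0, 42.4, 27.3 and 0%, the 5 aged STD mice 0%, and 6 of 7 aged ENR mice 0%. In the coding exon of Hoxd11, at position 74683920, 3 of 6 young STD mice were at 0 and the other 3 at 27.0, 32.4 and 29.1%, whereas 5 of 6 aged STD mice were at 0 and the sixth at 0.952%. Their differences were -23.2 ± 7.79 and -14.6 ± 5.43 points (SE; limma, adjusted p = 1 for each). At all 3, young STD mice were split between 0 and intermediate values, and the groups overlapped at 0.

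Among CpGs with 5 or more mice in each group, the smallest unadjusted p for ENR lay 555 bp from the start of Hoxc10. This CpG, at position 102966241, is one of the 12 of the Hoxc10 promoter. The 6 aged STD mice with a value ranged from 0% over a median of 43.1% to 100%, the 8 aged ENR mice from 0% over 0.538% to 57.1%, and the 7 young STD mice from 0% over 20.5% to 44.4%. The ENR difference was -40.3 ± 14.5 points (SE; limma, adjusted p = 1). At position 74691545, 379 bp from the start of Hoxd10, 3 of 6 aged STD mice had values above 0, with 27.3% the highest, whereas all 8 aged ENR mice were at 0 and 5 of 6 young STD mice were. At position 52202992, in an intron of Hoxa3 and Hoxa5, the 7 aged ENR mice ranged from 0% over 10.7% to 67.1%, the 7 aged STD mice from 0% over 0% to 22.5%, and 7 of 8 young STD mice were at 0. Their ENR differences were -8.86 ± 3.35 and 23.5 ± 9.48 points (SE; limma, adjusted p = 1 for each), with all groups overlapping. Without aged STD replicate 6, the mouse at 27.3%, the difference at position 74691545 was -5.17 points. With aged STD replicate 5 left out, the 3 aging differences of these CpGs were -9.20, -23.2 and -14.6 points and the 3 ENR differences -44.2, -8.51 and 23.0 points (limma, adjusted p = 1 for each).

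No Hox promoter passed the test either. Over 12329 promoters, limma with Benjamini-Hochberg adjustment called 0 of 36 Hox promoters for aging, where 0.0162% of all promoters were called, and 0 of 36 for ENR, where 0.0162% were. The smallest adjusted p was 0.874 for aging and 0.925 for ENR. At an unadjusted p under 0.05, 5 of 36 (13.9%) passed for aging against 5.31% of all promoters, and 3 (8.33%) for ENR against 4.81%. Of the 36 differences, 23 (63.9%) were higher in aged STD than in young STD mice, against 50.3% over all promoters, with a median of 0.486 points, and 13 (36.1%) were higher in aged ENR than in aged STD mice, against 45.3%, with a median of -0.555 points. The shared aged STD mice enter both counts. By paralog group, 7 of 10 promoters of groups 1 to 4, 5 of 10 of groups 5 to 8 and 11 of 16 of groups 9 to 13 were higher for aging.

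The promoters with the smallest unadjusted p for aging were Hoxb5, Hoxb6, Hoxa5 and Hoxc4, the first 3 of which are genes of the central paralog groups that pattern neck and trunk. At Hoxb5 the 8 young STD mice ranged from -0.0175% over a median of 0.710% to 4.76%, the 7 aged STD mice with a value from 1.56% over 4.35% to 9.28%, and the 8 aged ENR mice from -0.207% over 2.84% to 6.38%. At Hoxb6 the same values were -0.826, 0.143 and 3.19% in the young STD group, -0.365, 4.05 and 15.6% in the aged STD group, and -0.719, 1.53 and 10.2% in the aged ENR group. 2 of 7 aged STD mice at Hoxb5, and 5 of 8 at Hoxb6, lay above every young STD mouse. The aging differences were 3.64 ± 1.29 points at Hoxb5 and 4.72 ± 1.85 points at Hoxb6 (SE; limma, adjusted p = 0.874 for each). Hoxb5 and Hoxb6 neighbour each other in HoxB, and the noncoding gene Hoxb5os, antisense to both, was at 2.43% in the young STD group, 4.57% in the aged STD group and 2.44% in the aged ENR group over 82 CpGs, some of them shared with the promoters.

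At Hoxa5, a gene known for its role in lung and neck, the young STD mice ranged from 0.913% over a median of 1.66% to 6.50%, the aged STD mice from 1.73% over 6.14% to 11.6%, and the aged ENR mice from 0.393% over 4.32% to 7.66% (n = 8 each). 4 of the 8 aged STD mice lay above every young STD mouse, and the difference was 3.63 ± 1.46 points (SE; limma, adjusted p = 0.874). At Hoxc4 the young STD mice ranged from 0.708% over 2.27% to 7.58%, the aged STD mice from 1.95% over 7.84% to 33.5%, and the 7 aged ENR mice with a value from -0.541% over 1.79% to 8.92%. The aging difference was 7.58 ± 3.26 points and the ENR difference -7.96 ± 3.37 points (SE; limma, adjusted p = 0.874 and 0.925). Replicate 4, at 33.5%, was the highest aged STD mouse by a wide gap, and without it the differences were 4.60 and -5.06 points. The aging differences without aged STD replicate 5 were 3.96 points at Hoxb5, 4.98 at Hoxb6, 4.43 at Hoxa5 and 7.24 at Hoxc4 (limma, adjusted p = 0.862 for each).

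For ENR, Hoxd11 had the smallest unadjusted p of the promoters. This gene of the posterior limb and spine had 66 measured CpGs, and its young STD mice ranged from 0.718% over a median of 2.01% to 3.12%, its aged STD mice from -0.436% over 0.996% to 4.83% and its aged ENR mice from 1.99% over 3.55% to 6.16% (n = 8 each). Aged ENR mice were thus the highest group, with 2 of 8 above every aged STD mouse, and the ENR difference was 2.29 ± 0.745 points (SE; limma, adjusted p = 0.925). At Hoxb8, expressed in the spinal cord and in blood cells, the medians were 2.49% in the young STD group, 1.65% in the aged STD group and 5.70% in the aged ENR group, and the ENR difference was 4.07 ± 1.90 points (SE; limma, adjusted p = 0.925). At Hoxc11 it was 1.80 ± 1.08 points (SE; limma, adjusted p = 0.925). Single aged ENR mice carried much of the last 2 values: without replicate 7 the Hoxb8 difference was 2.53 points, and without replicate 2, at 9.0% the highest mouse at Hoxc11, the Hoxc11 difference was 1.03 points. Leaving out aged STD replicate 5 gave ENR differences of 2.15 points at Hoxd11, 3.72 at Hoxb8, 1.87 at Hoxc11 and -7.61 at Hoxc4 (limma, adjusted p = 0.892 for each).

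Fixed tiles of 1 kb covered gene bodies and the space between genes as well as the promoters. Of 160 Hox tiles with at least 5 CpGs, 146 (91.2%) had a mean under 10% and 1 had a mean over 50%, against 46.5% and 37.8% of 41411 tiles of the genome. In limma over all tiles with Benjamini-Hochberg adjustment, 0 of 160 were called for aging, where 0.00483% of all tiles were called, and 0 of 160 for ENR, where 0.00241% were, with smallest adjusted p of 0.853 and 0.963. At an unadjusted p under 0.05, 10 (6.25%) passed for aging against 5.29% of all tiles, and 8 (5.0%) for ENR against 4.28%. The most methylated tile, which holds the first sequence shown, was at 85.8% ± 7.35 (SD) over 4 young STD mice, 87.2% ± 13.7 over 5 aged STD mice and 85.5% ± 13.3 over 7 aged ENR mice. The least methylated, in Hoxb8, was at 0 in all mice with a value, 6 young STD, 6 aged STD, 7 aged ENR.

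The other clusters had no tile as high as that of the HoxB interval. In HoxA the highest tile was chr6:52209001-52210000, with a mean of 16.4%, in an intron of Hoxa3 and centred 778 bp from the start of Hoxa6. Its 6 measured CpGs lie within 1 kb of that start and so also belong to the Hoxa6 promoter. The lowest HoxA tile was chr6:52197001-52198000, also in Hoxa3, at 0 in every mouse with a value but 1 young STD mouse at 20%. In HoxC the lowest tile, at 1.26%, lay in Hoxc11. In HoxD the highest was chr2:74714001-74715000, in introns of Hoxd3 and Hoxd4, with 16.3%, and the lowest was in Hoxd9, with 0.738%.

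A tile at a start of Hoxd3 and one in Hoxc5 were among the 3 smallest unadjusted p in both comparisons, which share the aged STD mice. At chr2:74736001-74737000, which holds the third sequence shown and 37 measured CpGs, the young STD mice ranged from -0.267% over a median of 2.03% to 5.04%, the aged STD mice from 0.313% over 7.49% to 10.6%, and the aged ENR mice from -1.85% over 1.02% to 4.49% (n = 8 each). 5 of the 8 aged STD mice lay above every young STD mouse, while the other 3 fell within the young range. The aging difference was 4.18 ± 1.47 points (SE; limma, adjusted p = 0.892) and the ENR difference -4.67 ± 1.47 points (SE; limma, adjusted p = 0.963). Without aged STD replicate 5 they were 5.01 and -5.56 points (adjusted p = 0.618 and 0.740 by limma).

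In the Hoxc5 tile, chr15:102985001-102986000, only 5 aged STD mice had a value, at 14.4, 0, 20, 15.6 and 17.8%. The 8 young STD mice ranged from 0% over a median of 3.13% to 12.6%, and the 7 aged ENR mice from 0.0302% over 2.03% to 10.1%. All aged STD mice but the one at 0 lay above every mouse of both other groups. The aging difference was 9.34 ± 3.06 points (SE; limma, adjusted p = 0.853) and the ENR difference -9.93 ± 3.14 points (SE; limma, adjusted p = 0.963). With aged STD replicate 5 left out, they were 9.36 and -9.95 points.

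The third tile for aging, chr11:96303001-96304000, overlaps the Hoxb5 promoter and is no separate result. Its aged STD mice ran from -0.191% over a median of 4.55% to 9.96%, with 1 below every young STD mouse, and its aging difference was 3.55 ± 1.45 points (SE; limma, adjusted p = 0.919), or 3.83 points without aged STD replicate 5. The third tile for ENR, chr2:74733001-74734000, was centred 587 bp from another start of Hoxd3 and held 6 measured CpGs. Its young STD mice ranged from 0% over a median of 2.78% to 7.55%, its aged STD mice from 0% over 2.17% to 4.27%, and its aged ENR mice from 0.926% over 8.49% to 16.7% (n = 7 each). 5 of the 7 aged ENR mice lay above every aged STD mouse, and the ENR difference was 5.56 ± 1.93 points (SE; limma, adjusted p = 0.963), or 5.79 points without aged STD replicate 5. This tile and the one 3 kb downstream, both in Hoxd3, thus had ENR differences of opposite sign, neither of which passed the test.

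**Figure D5:**
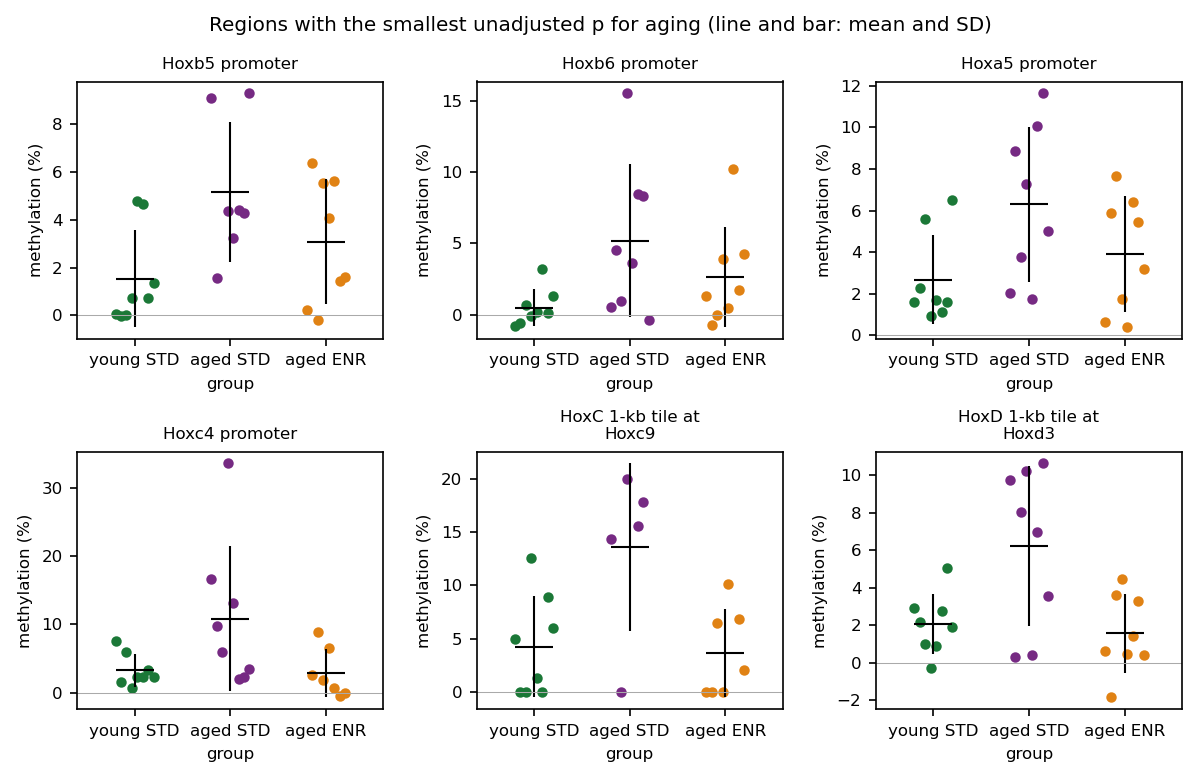
Coverage-adjusted methylation (percent) of single mice by group at the Hoxb5, Hoxb6, Hoxa5 and Hoxc4 promoters, the Hoxc5 tile beyond Hoxc9 and the tile at a Hoxd3 start; each point is a mouse, and line and bar are the group mean and SD. The aged STD mice at the Hoxd3 start run from 0.313 to 10.6% and overlap the young STD mice, whose highest value is 5.04%.

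The genes that act with or upon the Hox clusters were read from lists. Of 9 Hox cofactors of the Pbx, Meis and Pknox families, which bind DNA together with Hox proteins, 7 had a measured promoter and 0 were called in limma for either comparison. The promoter levels ran from 2.39 to 9.64%, and 5 of 7 were higher in aged STD than in young STD mice. Of 19 Polycomb genes 18 were measured and 0 called, with 7 higher and 11 lower for aging and 10 higher and 8 lower for ENR. Over all 12329 promoters, 50.3% were higher for aging and 45.3% for ENR, and 0.0162% were called in each comparison. Of the 6 Trithorax genes, which counter Polycomb silencing, and the 8 ParaHox and Evx genes, which are homeobox relatives of the Hox genes, all were measured and 0 were called. At an unadjusted p under 0.05 in limma, 1 Trithorax gene passed in each comparison and 0 genes of the other 3 lists did, where 5.31% of all promoters passed for aging and 4.81% for ENR. The median aging difference was 0.288 points for the cofactors, -0.818 for Polycomb, 0.0318 for Trithorax and -1.36 for ParaHox and Evx genes, beside 0.0103 points over all promoters. The smallest Benjamini-Hochberg adjusted p in the 4 lists was 0.874 for aging and 0.925 for ENR.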

How the data were processed

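The 24 mice, 8 per group and labelled as separate animals, were profiled by RRBS of dentate gyrus DNA, and each table column was matched to a mouse by its group and number (0 columns of other samples). The authors deposited 1 methylation percent per CpG and mouse, strands separate and mice not pooled. Per the study's methods, reads were trimmed, mapped to mm10 with Bismark and passed through methylKit, which dropped values under 10 reads or above the 99.9th coverage percentile and CpGs measured in fewer than 3 mice per group. The submitters' processing notes name Bismark 0.16.1, Trim Galore 0.4.0, cutadapt 1.8.1 and methylKit 1.5.2, whereas the study's methods give later versions of Bismark and Trim Galore, and which made the table is not known. The table holds percentages alone, so the depth of a value is unknown and reads could not be tested. Of 2463 Hox CpGs, 2462 lie at a CG of GRCm38.

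Gene models were GENCODE M21. A promoter held every CpG within 1000 bp of a protein-coding transcript start, and tiles were fixed windows of 1000 bp. Both needed at least 5 CpGs, with at least 3 covered in a mouse. The mean of a mouse was its mean deviation from the mean of the group means of each CpG, plus the mean of the region. Group-means models of all 24 mice were fitted with limma 3.58.1 in R 4.3.3 over all CpGs, promoters or tiles, with Benjamini-Hochberg adjustment (threshold 0.05, for CpGs also a difference over 25 points), and were tested on simulated data. Tables and figures were made in Python 3.11.15 (pandas 2.3.3, numpy 2.4.6, matplotlib 3.10.9). Named were called features, for each comparison the 3 CpGs (at least 5 mice per group), 3 tiles and 4 promoters with the smallest unadjusted p, the highest and lowest tile per cluster, and the 6 highest and 6 lowest promoters. Methylated CpGs, noncoding genes, microRNA genes, the Hoxb3 promoter and the Hox CpGs called with the replicate block were named after their values were seen. Members and lists were chosen with earlier results of these data known. Alternatives were another number of mice or CpGs, averaged strands, plain means, a logit scale, a variance trend, fits of the 2 groups compared, a replicate block, other promoter and tile sizes and each mouse left out. Same-numbered mice of different groups did not deviate together (mean r = -0.00387 over 24 pairs, from -0.0405 to 0.0205, over 8628 CpGs covered in every mouse), so the numbers were not taken as pairs.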

Additional observations from a re-analysis of the deposited data

Results flagged for a closer look

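In 22 of 112 groups of values at the named features and cluster means, 1 mouse lay apart from the others of its group by Dixon's criterion. Chance flags about 1 in 20 groups of continuous values, but the number here cannot be read against that share: in 6 of the 22 groups all other mice were at exactly 0, where any value above 0 is marked, and most of the features were named for extreme values. The 22 values came from 15 mice, none with more than 2.

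The HoxD mean of aged ENR replicate 1 was 5.85%. Among promoters, aged STD replicate 4 was at 33.5% at Hoxc4, replicate 8 at 32.1% at Hoxc10 and at 13.8% at Hoxd8, replicate 1 at 16.8% at Hoxd13 and replicate 3 at -5.04% at Hoxa10. Among aged ENR mice, replicate 1 was at 23.7% at the Hoxd4 promoter and replicate 6 at 10.2% at the Hoxb6 promoter. Among young STD mice, replicate 1 was at 13.5% at Hoxa3, replicate 3 at 6.18% at Hoxd9 and replicate 7 at 6.10% at Hoxc11.

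Among tiles, aged STD replicate 3 was at 0% in the Hoxc5 tile beyond Hoxc9 where the other 4 mice were high, young STD replicate 2 at 20% in the lowest HoxA tile, young STD replicate 6 at 4.27% in the lowest HoxC tile and aged ENR replicate 4 at 8.30% in the lowest HoxD tile. Among CpGs, aged ENR replicate 8 was at 4.76% in the Hoxa4 coding exon, aged ENR replicate 4 at 14.8% in Gm53, and aged STD replicate 6 and aged ENR replicate 8 at 0.952 and 11.8% in the Hoxd11 coding exon. Young STD replicate 3 was at 7.69% near the Hoxd10 start, and young STD replicate 4 and aged STD replicate 4 were at 13.8 and 22.5% in the intron of Hoxa3 and Hoxa5.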

How the results depend on the processing

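No Hox promoter or tile was called for aging or ENR under any alternative (0 to 0 with each mouse left out), and Hox CpGs were called only with the replicate block, 1 for aging and 1 for ENR. These were a CpG of Hoxb4 at position 96320752, where the block gave a difference of 51.7 points and no block 13, and a CpG of Hoxd3 at position 74746513, where it gave 70.6 points and no block 23.5 (limma, adjusted p = 0.0303 and 0.000588). Each had 3 or 4 mice per group and 1 or 2 mice above 0, and the block raised the calls over all CpGs from 33 to 486 for aging and from 30 to 422 for ENR. Over all CpGs, aging calls were 0 in a fit and adjustment of only those with at least 5 mice per group, against 2 of these in the fit of all CpGs, 15 with a variance trend, 84 with only the groups compared and 17 to 51 with a mouse left out.

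With at least 5 mice per group, the counts over 25 points were 18 for aging and 13 for ENR. They ran from 84 to 106 and from 68 to 94 with a mouse left out. The counts over 10 points were 521 and 506, or 21.2 and 20.5% of the Hox CpGs, against 29.0 and 27.9% of all CpGs. Within 1 kb of a start the order turned, at 19.4 against 14.2% for aging and 18.8 against 13.3% for ENR. With only CpGs covered in all 24 mice, levels were 7.01% in all clusters, 6.44% in HoxA, 9.15% in HoxC and 8.45% in HoxD. The differences in all clusters were then 0.224 (aging) and -0.0133 (ENR). In HoxC they were 3.12 (aging) and 1.24 (ENR) over 6 CpGs, and in HoxD -1.07 (aging) over 7 CpGs. The sign also turned there in HoxA for ENR (0.299), in HoxB for aging and ENR (-0.867 and -0.542) and in HoxD for ENR (-1.01), each against less than 1 point with all CpGs. With only CpGs within 1 kb of a start, aging differences were 0.616 in all clusters and 0.797 in HoxB, and ENR differences -0.367 in all clusters, 0.285 in HoxB and -1.44 in HoxC. Plain means gave an ENR difference of 0.337 in HoxB, and a cluster difference for aging, HoxD alone, of 0.286. With a mouse left out, aging differences ran from 0.178 to 0.501 points in all clusters, 0.269 to 0.763 in HoxA, -0.149 to 0.300 in HoxB, 0.220 to 0.546 in HoxC and 0.0451 to 0.596 in HoxD. ENR differences ran from -0.309 to -0.00340, -0.646 to -0.188, -0.172 to 0.310, -0.808 to -0.145 and -0.0885 to 0.470 in the same order. Levels ran from 5.08 to 5.2%, 4.32 to 4.48%, 7.05 to 7.27%, 4.87 to 5.06% and 4.21 to 4.43%. The cause was not tested. Few covered CpGs per mouse and unknown read depth limit every value.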

Other observations

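Some Hox CpGs with a low mean had a high value in single mice. Where the other mice averaged under 10%, 753 of 33415 values (2.25%) were at 50% or more, against 1.67% over all CpGs and 1.16% within 1 kb of a start. They fell on 645 CpGs, 104 of which had such a value in 2 or more mice, and 307 of them were exactly 100%. Of those with a measured neighbour within 50 bp on the same strand in the same mouse, 20.4% had a neighbour at 50% or more, against 6.73% of the values under 50%. The share per mouse ran from 1.26 over a median of 2.08 to 2.94% in young STD, from 0.993 over 2.68 to 4.26% in aged STD and from 0.845 over 2.49 to 3.30% in aged ENR mice, and the groups overlapped.

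High values were rarely shared by the strands of a Hox CpG. At 311 CpGs measured on both strands, 175 pairs of values held one at 50% or more, and in 3 of these (1.71%) both strands were, against 68.9% over all CpGs. Among CpGs with a mean under 10% on both strands the shares were 1.16% in the Hox clusters and 0.820% over all CpGs.

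The microRNA genes of the clusters, which target Hox transcripts among others, lay in low regions. Within 1 kb, the mean was 3.61% at Mir10b in HoxD (9 CpGs), 3.2% at Mir196b in HoxA (36 CpGs) and 2.14% at Mir196a-2 in HoxC (17 CpGs), and Mir10a in HoxB had 0 measured CpGs. The Hoxa11os gene, antisense to Hoxa11, was at 3.65% over 119 CpGs and Hoxb3os at 4.15% over 72 CpGs.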
